A study of Mus musculus with 3 samples.

Results

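Nuclear receptors are transcription factors of macrophages, and 10 of their genes were followed on arrays of RAW264.7 cells, a mouse macrophage cell line. The genes were *Nr4a1*, *Nr4a2*, *Nr4a3*, *Nr1d1*, *Nr1d2*, *Pparg*, *Ppard*, *Rara*, *Rxra* and *Nr3c1*, found by the gene name of each spot that is no control. They were 10 of 36870 gene names and had 19 of 56605 distinct probes. Macrophages were challenged for 3 h with LPS, the bacterial lipopolysaccharide sensed through TLR4, either alone or after treatment with *L. plantarum* LOC1 or LOC3, bacteria isolated from fresh tea leaves. The strain treatment lasted 12 h by the sample labels and longer by the methods of the study, and the LPS dose given in its methods and in its results is not the same. Each condition had 1 array, so the design allows neither an SD nor a test of any difference between conditions, and nothing says how far separate cultures would differ. The strain comparisons also share the LPS array, so that a value particular to it enters both.

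Nuclear receptors share a DNA-binding domain and a ligand-binding domain. Many respond to small fat-soluble ligands, and binding of an activating ligand typically exchanges corepressors for coactivators at target genes, while others have no known natural ligand. *Nr4a1*, *Nr4a2* and *Nr4a3* encode receptors that work without a known natural ligand in the usual sense and whose genes are switched on early by many stimuli. *Nr1d1* and *Nr1d2* encode the heme-binding repressors REV-ERB alpha and beta of the circadian clock. *Pparg* and *Ppard* encode receptors for fatty acids, *Rara* encodes the retinoic acid receptor alpha, *Rxra* encodes the partner with which PPARs and retinoic acid receptors pair, and *Nr3c1* encodes the glucocorticoid receptor. In macrophages several of these receptors are known to restrain inflammatory genes.

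The promoters of the NR4A genes are shown because these 3 early response genes are 1 family and all held the same repeated motif. The 250 bases before the start of each gene were read from RefSeq (GRCm38.p6), 5′ to 3′ on the strand of the gene. Capitals mark TGACG, the core of the site bound by CREB, or CGTCA, the same core on the other strand. This motif was added after the promoters were seen.
Nr4a1, chr15:101266596-101266845, plus strand: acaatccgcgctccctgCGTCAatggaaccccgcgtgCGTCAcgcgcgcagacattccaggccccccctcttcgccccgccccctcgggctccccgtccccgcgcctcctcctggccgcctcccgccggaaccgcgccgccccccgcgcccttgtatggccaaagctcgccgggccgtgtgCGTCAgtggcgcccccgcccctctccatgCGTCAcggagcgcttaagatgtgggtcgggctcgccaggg
Nr4a2, chr2:57124004-57124253, minus strand: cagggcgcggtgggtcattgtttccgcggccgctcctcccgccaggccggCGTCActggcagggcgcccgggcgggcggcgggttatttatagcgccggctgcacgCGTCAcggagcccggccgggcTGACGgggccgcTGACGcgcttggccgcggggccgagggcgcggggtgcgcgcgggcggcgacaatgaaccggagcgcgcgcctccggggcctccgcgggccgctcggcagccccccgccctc
Nr4a3, chr4:48045055-48045304, plus strand: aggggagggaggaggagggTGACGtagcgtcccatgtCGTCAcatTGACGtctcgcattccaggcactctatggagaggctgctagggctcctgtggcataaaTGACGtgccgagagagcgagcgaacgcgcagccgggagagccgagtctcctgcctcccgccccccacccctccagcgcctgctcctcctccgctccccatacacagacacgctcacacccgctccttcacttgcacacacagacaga
Each of these promoters held 4 copies of the core. Among 32851 mouse promoters of the same length, 17.8% held at least 1 copy and 45 (0.137%) held 4 or more. The NR4A promoters had 74.4%, 80% and 63.6% GC, in the order shown, beside a median of 52.4% for all promoters. They held 34, 44 and 18 CG pairs, beside a median of 6. TGACG itself holds a CG pair, and no share was taken among promoters of like composition. Of the other member promoters, 1 of *Rara* held 1 copy. The full palindrome TGACGTCA was found in none of the 15 promoters matched to 9 members, against 1.55% of all promoters.

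*Nr1d2* is shown next because its 3 probes all differed from LPS by over 1.5-fold after both strains. Capitals mark AGGTCA, the core motif of many nuclear receptors, and a match to GGANTTTCC or its reverse complement, the kappa B motif.
Nr1d2, chr14:18239107-18239356, minus strand: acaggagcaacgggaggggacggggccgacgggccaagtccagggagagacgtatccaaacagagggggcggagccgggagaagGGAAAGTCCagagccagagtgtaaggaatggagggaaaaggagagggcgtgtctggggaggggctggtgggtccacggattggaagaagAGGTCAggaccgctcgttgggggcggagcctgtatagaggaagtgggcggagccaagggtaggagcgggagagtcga
AGGTCA, searched on both strands, was found in 14.0% of all promoters and the kappa B motif in 1.07%. AGGTCA was also found once in 2 of the 3 *Pparg* promoters and at 2 places in 1 *Rxra* promoter, where 1 of them lay within AAAGGTCA, the motif bound by NR4A monomers (1.34% of all promoters). The clock motif CACGTG (6.02%) was found in 1 *Rara* promoter, and AGAACA, the core of the glucocorticoid response element (16.1%), in none of the 15. A match is a description of these letters and not a measured binding site.

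The arrays were Agilent 1-colour arrays, and intensities are given as deposited, while log2 differences were taken after scaling to the 75th percentile of each array (intensities of 544, 504 and 508 in the order LPS, LOC1, LOC3). Signals well above background made up 51.9%, 50.4% and 47.8% of probes. Where a signal was not well above background and lay below the lowest one that was (16.3, 14.5 and 19.8), it was raised to that value. A difference taken from such a raised value is a lower limit, given as "at least". The cell type was checked with lists of markers: all 10 macrophage markers were well above background on all 3 arrays. Their summed intensity was 528409, 404130 and 438806 in the order LPS, LOC1, LOC3. Of the 10, 1 was past 2-fold lower than with LPS after both strains, *Fcgr3* (log2 differences of -1.65 and -1.43), and 0 were higher. Of 8 epithelial markers 1 was well above background on all arrays, with a summed intensity of 82.1 to 99.7. Of 8 lymphocyte markers this was true of 3 (1290 to 1421), and of 8 fibroblast and endothelial markers of 6, all faint (259 to 276). The part of RNA from such cells in the values was not tested.

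Of the 19 receptor probes, 15 were well above background on all arrays, 1 on 1 array and 3 on none. The brightest probe of a gene stood for it, and this probe was well above background on all 3 arrays for 9 of the 10 genes. Levels of different genes were not compared, since probes differ in how strongly they bind. The only error at hand is the noise between spots. From probes printed 10 times on an array, 265 to 268 bright and 9 to 12 dim ones, the technical SD of a log2 difference of 2 arrays was 0.06 for bright and 0.33 for dim signals.

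**Figure D1:**
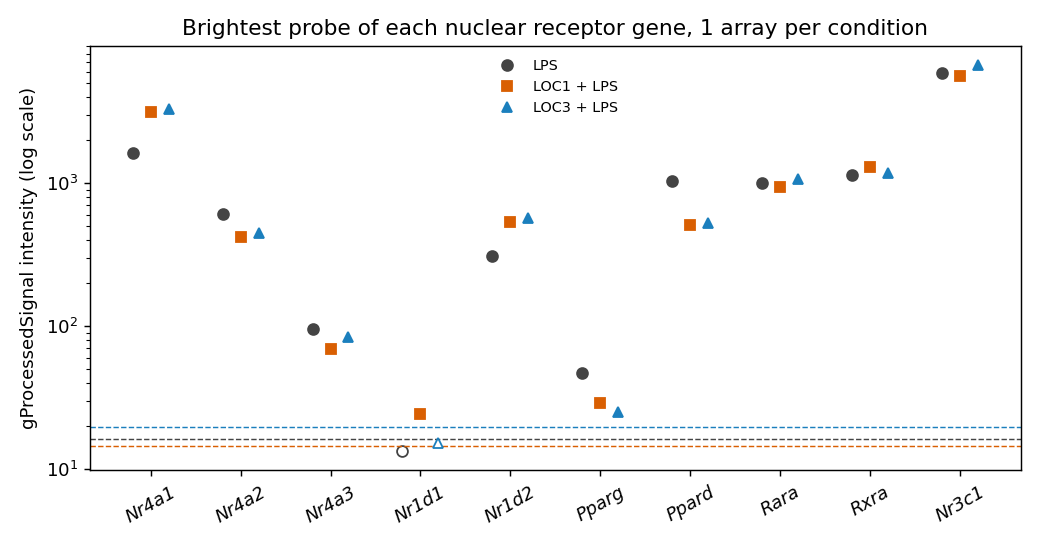
Intensity of the brightest probe of each receptor gene (log scale) on the LPS, LOC1 + LPS and LOC3 + LPS arrays, 1 point per array. Open points were not well above background, and each dashed line marks the detection limit used for the array of its colour. *Nr4a1* and *Nr1d2* sat higher and *Ppard* and *Pparg* lower on both strain arrays than with LPS alone.

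*Nr4a1* was the only gene of the 10 past 2-fold on its brightest probe after both strains, and it also had the highest listed ratio of LPS to unchallenged macrophages. Its probe (chromosome 15, 101105071 to 101105130, mm9) gave an intensity of 1627 on the LPS array, 3107 after LOC1 and 3269 after LOC3. The strain arrays lay close together and above LPS. The log2 difference from LPS was 1.04 with LOC1 (2.06-fold) and 1.11 with LOC3 (2.15-fold), many times the spot noise, and that between the strains was -0.06.

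*Nr4a2*, the receptor best known from dopamine neurons and also induced in activated macrophages, was not higher after LOC3 as *Nr4a1* was. Its brightest probe (chromosome 2, 56960699 to 56960758) gave an intensity of 605 on the LPS array, 422 after LOC1 and 444 after LOC3, with log2 differences from LPS of -0.41 and -0.35. The other probe (56960000 to 56960059) gave 509, 483 and 405, and log2 differences of 0.03 and -0.23. The probes therefore differed on LOC1 by more than the spot noise, and no direction is given for LOC1.

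*Nr4a3*, the third member of the family, was faint. Its brightest probe (chromosome 4, 48064521 to 48064580) gave an intensity of 94.8 on the LPS array, 68.9 after LOC1 and 84.2 after LOC3. The log2 differences of -0.35 and -0.07 were close to that technical SD for dim signals or within it, and the LOC3 value turned to 0.12 under median scaling. The other 2 probes were not well above background in any condition.

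The clock repressor *Nr1d2* was higher after both strains on all 3 of its probes. The brightest (chromosome 14, 19036568 to 19036627) gave an intensity of 311 on the LPS array, 530 after LOC1 and 570 after LOC3, with log2 differences from LPS of 0.88 (1.84-fold) and 0.98 (1.97-fold). A neighbouring probe (19036859 to 19036918) gave 234, 454 and 421, with log2 differences of 1.07 and 0.95. The dimmest (19037253 to 19037312) gave 140, 227 and 228, with log2 differences of 0.81 and 0.80. The 3 probes read the same gene and are not replicates of a condition. The gene stood just under 2-fold on its brightest probe and past it, with LOC1, on 1 other.

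*Nr1d1*, the other REV-ERB gene, was near the limit of the arrays. Its probe (chromosome 11, 98630526 to 98631028) had intensities of 13.4 on the LPS array, 24.4 after LOC1 and 15.3 after LOC3, and only the LOC1 signal was well above background. This gave at least 1.61-fold over LPS and at least 1.24-fold over LOC3, and no fold for LOC3 against LPS. These limits hold for the main processing only. With normexp the log2 differences were 0.21 over LPS and 0.10 over LOC3, but its offset of 50 narrows any difference between signals this faint.

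*Ppard* had the lowest log2 differences of the 10 genes on their brightest probes. The probe (chromosome 17, 28438298 to 28438357) gave an intensity of 1033 on the LPS array, 508 after LOC1 and 525 after LOC3. Both strain arrays lay far below LPS and close to each other, with log2 differences from LPS of -0.91 (1.88-fold lower) and -0.88 (1.84-fold lower) and of -0.04 between the strains. Neither was past 2-fold.

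*Pparg*, which in macrophages directs lipid uptake and handling, was lower as well but dim. Its brightest probe (chromosome 6, 115440213 to 115440272) gave an intensity of 46.9 on the LPS array, 29.2 after LOC1 and 25.0 after LOC3. The log2 differences from LPS were -0.57 and -0.81, 1.49-fold and 1.75-fold lower, beside a technical SD of 0.33. Under normexp background correction, whose offset of 50 narrows differences of dim signals, they were -0.23 and -0.26. Its second probe was not well above background in any condition.

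The retinoid receptors differed little between the strain arrays and LPS. For *Rara* the brightest probe (chromosome 11, 98836197 to 98836256) had intensities of 1005, 935 and 1065 in the order LPS, LOC1, LOC3, which gave log2 differences from LPS of 0.01 and 0.18. Its other probe gave 319, 365 and 392, with log2 differences of 0.31 and 0.40. For *Rxra* the brightest probe (chromosome 2, 27618345 to 27618404) had intensities of 1136, 1285 and 1170, and log2 differences of 0.29 and 0.14. Its dim probe gave 35.8, 50.7 and 37.9, with log2 differences of 0.61 and 0.18. All of these differences were under 2-fold and above 0, apart from *Rara* after LOC1, where the 0.01 lay within the spot noise and became -0.03 with the 75th percentile taken over detected probes.

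*Nr3c1* differed little as well. The probes gave 5874, 5615 and 6644 (chromosome 18, 39571641 to 39571700) and 5624, 5452 and 6160 (39588272 to 39588331) with LPS, LOC1 and LOC3. The log2 differences from LPS were 0.05 and 0.07 with LOC1, about the size of the spot noise and turning to -0.01 on the brightest probe under quantile normalization, and 0.28 and 0.23 with LOC3. The log2 differences of the 2 probes were within the spot noise of each other with both strains.

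**Figure D2:**
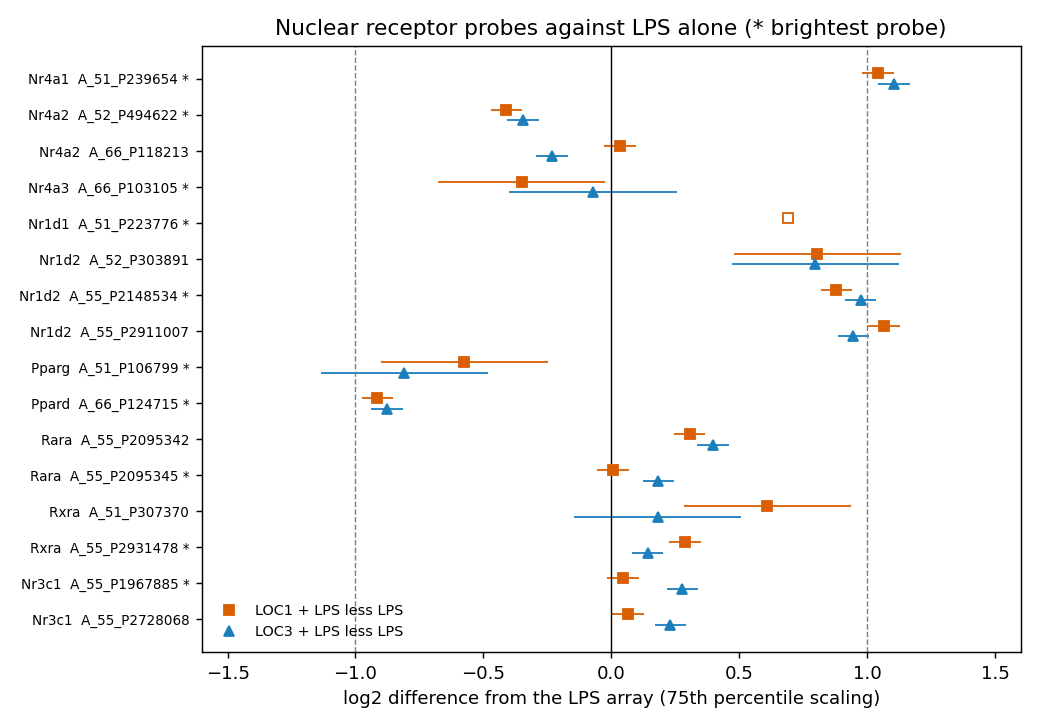
Log2 difference of each strain array from the LPS array for the 16 receptor probes well above background on at least 1 array, with the brightest probe of a gene starred. Bars are ± 1 technical SD between spots, not between cultures, the open point is a bound, and dashed lines mark 2-fold. *Nr4a1* and *Nr1d2* lie to the right and *Ppard* and *Pparg* to the left with both strains.

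By their brightest probes, 1 of 10 receptor genes was past 2-fold higher with LOC1 and 0 lower, while 2.49% of the 20031 genes compared were past 2-fold higher and 3.87% lower. With LOC3, 1 of 9 was past 2-fold higher and 0 lower, where 3% of 19812 genes were higher and 3.25% lower. The same gene, *Nr4a1*, made up both counts. With so few members, 1 gene more or less decides the share. The median log2 difference of the members was 0.03 with LOC1 and 0.14 with LOC3, beside 0.00 and 0.03 for all genes. Taken without sign, the median was 0.49 and 0.35, beside 0.26 and 0.23 for all genes. Between the strains, 0 of 10 members were past 2-fold, where 0.804% of 19398 genes were higher with LOC1 and 1.89% lower. The widest difference on a brightest probe, apart from the bound of *Nr1d1*, was -0.28 for the dim *Nr4a3*.

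The receptor levels with LPS against no challenge were read from the log2 ratios deposited by the authors against a reference. The reference was taken to be the unchallenged macrophages of the study, which the files do not state and whose own array is not analysed here. The deposited cells are blank under 2-fold. A blank cell was rebuilt where another column listed the same probe, and a probe that no column lists has no value here. *Nr4a1* was listed at a log2 ratio of 2.84 with LPS (7.16-fold), 3.92 with LOC1 and 3.99 with LOC3. *Rxra* was listed at -2.93 with LPS (7.64-fold lower), -2.61 with LOC1 and -2.75 with LOC3. Its other probe, dim but well above background on all 3 arrays, was listed in no column. For *Rxra* the strain difference was thus small beside that between LPS and the reference, while for *Nr4a1* it lay in the same direction as the latter.

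*Rara* was listed at -1.16 with LPS (2.24-fold lower) and at -1.12 with LOC1, and its blank LOC3 cell was rebuilt as -0.94. The other *Rara* probe, also well above background on all 3 arrays, was listed in no column. For *Pparg* the blank LPS cell was rebuilt as -0.92, and the listed values were -1.46 with LOC1 and -1.69 with LOC3. On this dim *Pparg* probe the value with LPS was below the reference, by under 2-fold, and the values after either strain were lower. By the intensities the log2 differences from LPS were -0.57 and -0.81, beside a technical SD of 0.33 for dim signals. For *Nr3c1* the LPS cell was rebuilt as 0.85 and the LOC1 cell as 0.93, and 1.17 was listed with LOC3. The other *Nr3c1* probe was listed in no column. A faint *Nr4a3* probe was listed at 1.36 with LPS, but the reference and all arrays were below background, so no fold is given. *Nr4a2*, *Nr1d1*, *Nr1d2* and *Ppard* were not listed in any column.

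Counting listed values with LPS, 2 of the 10 genes were higher (*Nr4a1* and the faint *Nr4a3*) and 2 were lower (*Rara* and *Rxra*). These 4 became 3 with dim reference signals raised to the limit, and also with the brightest probe only. In both cases *Nr4a3* was the gene left out. Of all 36870 gene names, 9.7% had a probe listed higher and 8.66% a probe listed lower.

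**Figure D3:**
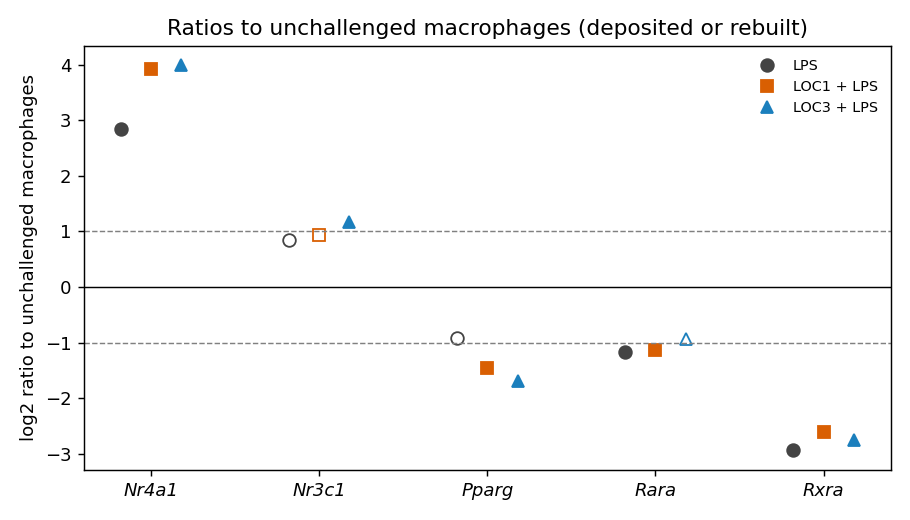
Log2 ratio to unchallenged macrophages for the 5 receptor genes with a listed probe above background, in the LPS, LOC1 + LPS and LOC3 + LPS columns. Filled points were deposited, open points were rebuilt from another column and the intensities, and dashed lines mark 2-fold. *Nr4a1* reached 3.99 with LOC3 and *Rxra* lay at -2.93 with LPS.

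The genes that work with these receptors were taken as 8 lists, each counted on the brightest probes. Among genes that make, carry or remove receptor ligands, those past 2-fold higher were fatty acid binding proteins, which carry fatty acids inside the cell, and an enzyme of retinoid synthesis. Of 10 compared with LOC1, 4 were past 2-fold higher and 0 lower (median log2 difference 0.34), and of 11 with LOC3, 3 and 0 (0.36). The higher count became 3 with LOC1 under normexp correction and 4 with LOC3 under median scaling. It was 1 with each strain from the deposited ratios, where only listed probes can be compared. *Fabp4* had intensities of 161, 747 and 435 in the order LPS, LOC1, LOC3, with log2 differences from LPS of 2.32 and 1.53. Its other probe gave 1.93 and 0.95, the latter under 2-fold. *Fabp5* had 27810, 62187 and 53516, with 1.27 and 1.04. *Rdh10*, an enzyme that starts the conversion of retinol to retinoic acid, had 532, 1148 and 1222, with 1.22 and 1.30. The dim *Fabp3* had 45.2, 95.2 and 67.6, with 1.18 and 0.68.

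Among 20 known PPAR targets, 17 were compared, and 2 were past 2-fold higher and 1 lower with each strain (median 0.07 with LOC1 and 0.05 with LOC3). The higher ones were *Fabp4*, counted in the former list too, and *Abcg1*, a cholesterol exporter that LXR also controls. *Abcg1* had intensities of 5162, 13827 and 12364 in the order LPS, LOC1, LOC3, with log2 differences from LPS of 1.53 and 1.36. The lower one was the mannose receptor *Mrc1*, with 53.3, 12.8 and 20.4, the last 2 not well above background. It was lower by at least 3.40-fold after LOC1. After LOC3 it was lower by 2.43-fold, from a signal over the limit of 19.8 that was not raised. Targets and receptors thus did not move as 1 group: *Pparg* and *Ppard* were lower on both strain arrays, *Fabp4* and *Abcg1* higher, and the list's median was close to 0. Under median scaling 5 targets were higher with LOC1 and 4 with LOC3. *Mrc1* was compared only through its signal on the LPS array, and 0 targets were lower with either strain under normexp correction, with detection required on both arrays or from the deposited ratios.

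Of 20 glucocorticoid receptor targets, 19 were compared, with 1 past 2-fold higher and 1 lower with each strain (median -0.04 with LOC1 and 0.05 with LOC3). The decoy receptor *Il1r2*, which binds IL-1 without signalling, had intensities of 536 on the LPS array, 44.2 after LOC1 and 68.7 after LOC3, with log2 differences of -3.49 and -2.86. The transcription factor *Klf9* had 170, 363 and 279, with 1.21 and 0.82. The kinase *Sgk1* had 7179, 13097 and 14304, with 0.98 and 1.09. *Klf9* and *Sgk1* were thus higher where *Il1r2* was lower. The count of higher targets became 4 with each strain under median scaling and 0 with LOC1 under normexp correction. The 10 chaperones that hold the glucocorticoid receptor ready for its ligand had 0 members past 2-fold (median 0.18 and 0.19). With LOC1 and LOC3 in that order, *Hspa8* gave -0.43 and -0.33, and *Bag1*, the highest after LOC3, gave 0.20 and 0.30.

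Of 20 circadian clock genes, 16 were compared with LOC1, 0 of them past 2-fold (median 0.22), and 15 with LOC3, 1 of them higher (0.12). That gene, named after its values were seen, was *Ciart*, a repressor of the clock activators, with intensities of 19.5, 31.5 and 47.4 in the order LPS, LOC1, LOC3. The first was not well above background but lay over the limit of 16.3 on the LPS array, so it was not raised. From it *Ciart* was 1.75-fold higher after LOC1 and 2.61-fold higher after LOC3. It was compared only through the strain arrays, and 0 clock genes were higher with LOC3 under normexp correction or with detection required on both arrays. With the 75th percentile over detected probes 1 clock gene was lower with LOC3. With LOC1, 1 clock gene became past 2-fold higher under median scaling and under quantile normalization. *Arntl2*, a partner of CLOCK, had intensities of 119, 59.4 and 56.5 in the order LPS, LOC1, LOC3, with log2 differences from LPS of -0.90 and -0.98. *Cry2*, a clock repressor, had 382, 215 and 252, with -0.72 and -0.50. Over its probes detected on all arrays it ran from -0.72 to -0.57 with LOC1 and from -1.06 to -0.50 with LOC3.

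Of 13 retinoic acid targets, 12 were on the array and 8 were compared, with 0 past 2-fold (median 0.01 with LOC1 and -0.04 with LOC3). *Cyp26a1*, which degrades retinoic acid, was at -0.56 with LOC1 and -0.61 with LOC3. Among 21 coactivators and corepressors compared by brightest probe, 0 were past 2-fold (median 0.17 and 0.08). By that probe the coactivators *Ppargc1b* (0.55 and 0.54) and *Ep300* (0.55 and 0.53) had the widest differences with LOC1. Other probes detected on all arrays went past 2-fold lower with LOC1 and LOC3 for *Ncor1* (-1.40 and -1.70) and *Nrip1* (-1.32 and -1.38). For *Lcor* 1 did so with LOC3 (-1.18). The highest such values were 0.84 and 0.75, for *Ncoa3*. For these genes the brightest probe does not speak for all probes.

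**Figure D4:**
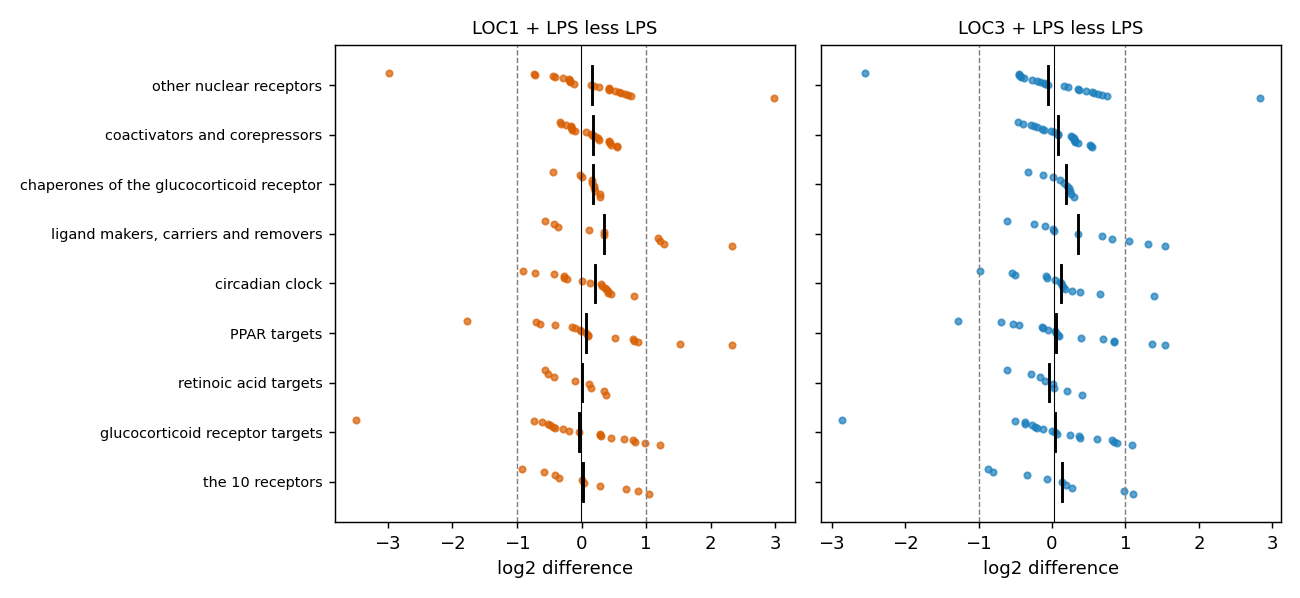
Log2 difference from LPS with LOC1 (left) and LOC3 (right) for the genes of each list and for the 10 receptors, 1 point per gene by its brightest probe, bounds included. Thick bars are the medians of a list, the thin line is the median of all genes and dashed lines mark 2-fold. Medians lie between -0.05 and 0.36, and the widest points are *Il1r2*, *Ppara* and *Esrrg*.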

How the data were processed

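RNA of RAW264.7 macrophages was measured on 3 one-colour Agilent mouse arrays, 1 per condition. The authors deposited the intensity of each spot, after background subtraction and detrending in Feature Extraction (12.0.3.1 per the file headers, another version in the methods) and with no scaling between arrays. The log2 ratios to a reference were deposited by the authors after GeneSpring processing, blank under 2-fold. The column medians were 1.05, -1.03 and -1.04 for LPS, LOC1 and LOC3. Against the intensities the LOC1 and LOC3 columns carried constant shifts of -0.15 and -0.14, and the implied reference differed between columns by over 0.001 for 2 of 6131 probes.

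Outlier spots (118 to 135 an array) were left out, spots of a probe were averaged, and log2 intensity less the 75th percentile of all spots was compared with a threshold of 2-fold for genes detected well above background in at least 1 condition of a pair. Python 3.11.15, numpy 2.4.6, pandas 2.3.3 and limma 3.58.1 (normexp, offset 50) were used, and the scripts were tested on simulated data. Positions of probes come from the files and use mm9. The t-test of the methods needs replicates and was not run.

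The members, lists and motifs were chosen with earlier results of these data known. All members are named. Of each list, up to 4 genes past 2-fold are named, taken by size, or, where fewer than 2 were past it, the 2 with the largest difference among those well above background on all 3 arrays, and 1 gene that this rule names is not reported here. The alternatives were other scalings, normexp, other thresholds, other probe rules and filters, and, added after seeing the data, the 75th percentile over distinct probes and the count of rebuilt ratios.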

Additional observations from a re-analysis of the deposited data

How the results depend on the processing

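The count of receptor genes past 2-fold was 1 with LOC1 and became 2 under median scaling, 4 at a 1.5-fold threshold and 0 at 3-fold. With LOC3 it was also 1 and became 2 under median scaling, under quantile normalization and with the 75th percentile over distinct probes (chosen after seeing the data), 4 at 1.5-fold and 0 at 3-fold. The gene gained at 2-fold was *Nr1d2*, at a log2 difference of 1.10 with LOC1 under median scaling and of 1.17, 1.01 and 1.01 with LOC3 under those 3 settings. *Nr4a1* was past 2-fold with each strain under every alternative but the 3-fold threshold. It ranged from 1.004 (75th percentile over detected probes, at the 2-fold limit) to 1.26 with LOC1 and from 1.06 to 1.30 with LOC3, and *Ppard* from -0.95 to -0.69 and from -0.92 to -0.69. Differences near 0 turned sign within their ranges: *Rara* (-0.03 to 0.23) and *Nr3c1* (-0.01 to 0.26) with LOC1 and *Nr4a3* (-0.11 to 0.12) with LOC3. Median scaling moved the median of all genes by 0.22 with LOC1 and 0.19 with LOC3, and it changed the genes past 2-fold from 498 higher and 776 lower to 886 and 478 with LOC1, and from 594 and 643 to 884 and 390 with LOC3. The cause was not tested. Normexp correction, whose offset narrows differences of dim signals, left 210 higher and 215 lower with LOC1 and 249 and 164 with LOC3. No paired analysis was possible because each condition had 1 array, and for the same reason no array could be left out. Signal over background limits *Nr1d1*, *Nr4a3* and *Pparg*.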

Other observations

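Of the 39 other nuclear receptor genes, 25 were detected well above background in at least 1 condition. With each strain 1 of those compared was past 2-fold higher and 1 lower (24 compared with LOC1, median log2 difference 0.17, and 23 with LOC3, -0.05). *Esrrg*, an estrogen-related receptor of oxidative metabolism, had intensities of 18.5 on the LPS array, 135 after LOC1 and 123 after LOC3, with log2 differences from LPS of 2.98 and 2.83. *Ppara*, the PPAR of fatty acid oxidation, had 124 with LPS and 3.26 and 4.35 after LOC1 and LOC3, both not well above background, at least 7.89-fold and at least 5.81-fold lower. *Ppara* was listed at a log2 ratio of 3.33 with LPS against the reference. This puts the reference signal below the limit of 16.3 on the LPS array, so the ratio is not a measured fold. Both genes rest on dim probes and 1 array per condition. Of the 3 *Esrrg* probes only 1 was well above background on all 3 arrays, and its LPS signal lay close to the limit of 16.3. *Ppara* was compared only through its signal on the LPS array, and a second probe of it was not well above background in any condition.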
